A study of Mus musculus with 24 samples.

Results

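The comparison described here set neural stem and progenitor cells (NSPCs) with one functional *Kat6a* allele (*Kat6a*+/–, labelled HET KO) against NSPCs with both alleles (*Kat6a*+/+, labelled WT), all kept under proliferating conditions. Each library is labelled with its genotype, culture condition, litter and replicate number, and these labels alone chose the 4 *Kat6a*+/– and 4 *Kat6a*+/+ libraries, 8 of the 24 in the series. The mutant allele lacks 5 exons from exon 4 to exon 8, which ends the reading frame early in the catalytic domain, and the line was kept on a C57BL/6 background by crossing heterozygous mice. Every library came from the dorsal telencephalon of a mouse embryo at embryonic day 12.5, taken from one of 5 litters. Cells of both groups were cultured by the same neurosphere protocol with FGF2 and EGF, were frozen at passage 3 or 4, and were plated for 3 days before RNA was taken. They are thus cultured and expanded cells, and a library is 1 embryo's culture. The 4 *Kat6a*–/– libraries of the same condition entered the same fit and are given beside the results where they bear on them. Because these are bulk libraries, fewer cells of a type and less RNA per cell cannot be told apart.

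KAT6A is a histone acetyltransferase that sits in a complex with BRPF, ING and MEAF6 proteins and acetylates lysines of histone H3 near active genes. In mouse embryos it is known for sustaining homeobox and T-box genes and for supporting stem cell pools. In people, damage to a single copy of the gene causes a syndrome of impaired cognitive development, which makes the heterozygous state of interest in its own right. NSPCs of the dorsal telencephalon are the precursors of cortical neurons and later of astrocytes and oligodendrocytes.

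Total counts ranged from 10089778 to 12542736 in *Kat6a*+/– and from 7854556 to 40838203 in *Kat6a*+/+ libraries, the deepest being *Kat6a*+/+ replicate 1. Between 15530 and 17550 genes had at least 1 read. Reads of Y-linked genes above 100 CPM (read counts scaled to the library total) were present in 3 *Kat6a*+/+ libraries and in 1 *Kat6a*+/– library, so the groups differed in the sex of the embryos. The radial glia and stem cell markers summed to 11705 to 12425 CPM in wild-type and 12031 to 13219 CPM in heterozygous libraries, with none of 15 absent. Markers of other tissues were checked as well. Of 9 microglia markers 4 had no read in any of the 8 libraries (*Cx3cr1*, *C1qa*, *C1qb* and *C1qc*), while *P2ry12* was at 1.18 to 1.40 CPM in wild-type and 1.20 to 3.41 CPM in heterozygous libraries. The summed microglia list did not overlap, at 1.26 to 1.40 CPM and 1.70 to 3.51 CPM. Of its 9 members 8 had under 10 reads in each of the 8 libraries, and *P2ry12* itself overlapped, so this separation rests on few reads. Mesenchymal and meningeal markers summed to 111 to 129 CPM and 147 to 199 CPM, without overlap and mostly from *Prrx1*. The endothelial list summed to no more than 14.3 CPM in any of the 8 libraries.

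*Kat6a*+/– replicate 4, the sole library of litter 5063 among the 8, stood apart from the rest. On the first principal component of log2 CPM, which held 43.7% of the variance of the 8 libraries, it lay at 45.9 while the others lay between −20.4 and 13.1. Its median absolute log2 difference from another library was 0.193 to 0.236 per gene, against 0.0972 to 0.168 for all other pairs. Among the remaining libraries *Kat6a*+/– replicates 1 and 2 each lay nearest to a *Kat6a*+/+ littermate (replicates 1 and 3), whereas *Kat6a*+/– replicate 3 did not lie with its litter. On the first component of all 12 proliferating libraries (52.4% of the variance), *Kat6a*+/– replicate 4 lay at 21.6. There the *Kat6a*–/– libraries lay at 21.8 to 56.1 and the other *Kat6a*+/– libraries at −22.7 to −8.16. Litter 5063 also holds *Kat6a*–/– replicate 4 but no *Kat6a*+/+ library. For that litter a difference from *Kat6a*+/+ cells cannot be told apart from the litter. Values without *Kat6a*+/– replicate 4 are therefore given beside the results.

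**Figure D1:**
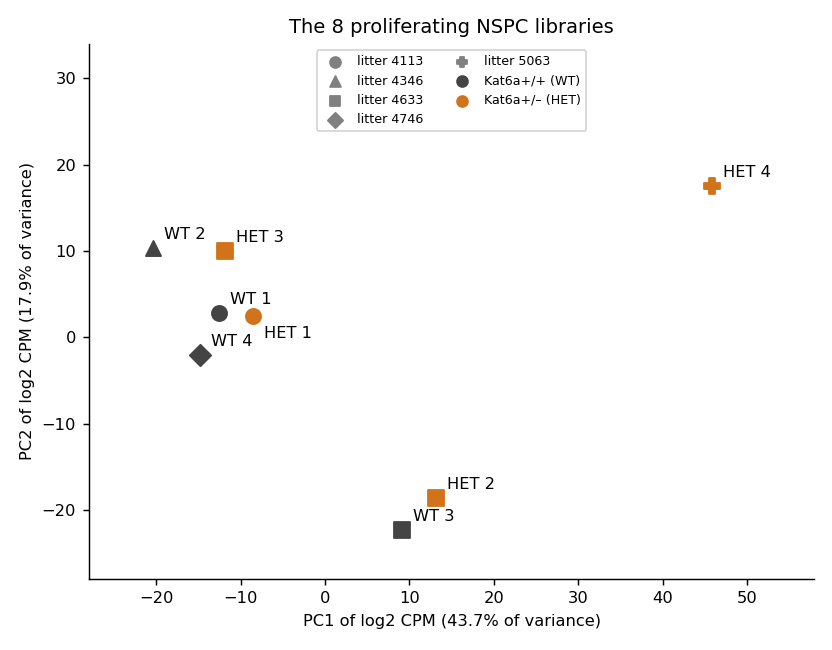
Principal components 1 (horizontal axis) and 2 (vertical axis) of log2 CPM over the tested genes of the 8 libraries, with colour for genotype and shape for litter. HET 4 lies alone at 45.9 on the first component, and the other 3 *Kat6a*+/– libraries lie among the *Kat6a*+/+ libraries.

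*Kat6a* itself (Entrez 244349, mm39 chromosome 8, 23349545 to 23433275) was at 346, 365, 368 and 341 CPM in *Kat6a*+/– replicates 1 to 4 and at 399, 392, 405 and 378 CPM in *Kat6a*+/+ replicates 1 to 4. All 4 *Kat6a*+/– libraries lay below all 4 *Kat6a*+/+ libraries. The group means were 355 ± 13.8 and 393 ± 11.7 CPM (SD, n = 4), which puts the heterozygous level at 90.3% of wild type (exact two-sided permutation test, p = 0.0286, the smallest that 4 against 4 can give). The counts cover the whole gene, including exons outside the deletion, and the *Kat6a*–/– libraries were at 344 to 397 CPM, so this value does not measure the loss of intact transcript. Of the other members of the complex, the close paralog *Kat6b* was at 56.4 ± 1.29 CPM against 56.7 ± 2.35 CPM (log2 fold change −0.02 ± 0.06 SE). The scaffold *Brpf1* had an estimate of −0.15 ± 0.07, and the accessory subunits *Ing5* and *Meaf6* had −0.00 ± 0.10 and −0.07 ± 0.10. Of the 8 tested complex genes only *Kat6a* had an unadjusted p under 0.05. No gene of the MLL and menin complex, 11 tested, did, and of 9 other histone acetyltransferases only *Ep300* did (−0.15 ± 0.07). Over all tested genes 7.43% had an unadjusted p under 0.05 in either direction, and in lists this short these counts are near that share.

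To find genes whose mRNA level differed between the genotypes, 12276 protein-coding genes were fitted with limma-voom over the 12 proliferating libraries, with litter as a random block. No gene passed a false discovery rate (FDR) of 0.05, or 0% of those tested. The smallest FDR was 0.0692, shared by *St8sia4*, *Inpp4b*, *Peg3* and *Elfn2*, and 18 genes had an FDR under 0.25, of which 12 were higher in *Kat6a*+/– cells. At an unadjusted p under 0.05 there were 912 genes (7.43%), 533 higher (4.34%) and 379 lower (3.09%). The edgeR quasi-likelihood test also called 0 genes at the FDR threshold, with 740 at an unadjusted p under 0.05. DESeq2 called 28, of which 22 were higher and 6 lower, with 824 at an unadjusted p under 0.05. Neither of these fits had a litter term, so littermates were treated as independent in them. In limma without a litter term 0 genes were called, with 830 at an unadjusted p under 0.05. The number at an unadjusted p under 0.05 depended on *Kat6a*+/+ replicate 1, without which it was 482. Without *Kat6a*+/– replicate 4 it was 634, and 506 of these were among the 912. Read as ranges, all 4 *Kat6a*+/– libraries lay above all 4 *Kat6a*+/+ libraries in 278 genes (2.26%) and below them in 283 genes (2.31%).

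The estimates were small in size. The median absolute log2 fold change was 0.086, against 0.21 for *Kat6a*–/– vs. *Kat6a*+/+ cells in the same fit. Estimates beyond 1 in either direction were found for 86 genes, 61 of them higher, and for 879 genes in *Kat6a*–/– cells. The 95% interval of the heterozygous estimate lay wholly within ±0.5 for 9003 genes (73.3%) and within ±1 for 11259 genes (91.7%), so that a larger difference was excluded at that level for most but not all of the tested genes. The median standard error was 0.107.

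**Figure D2:**
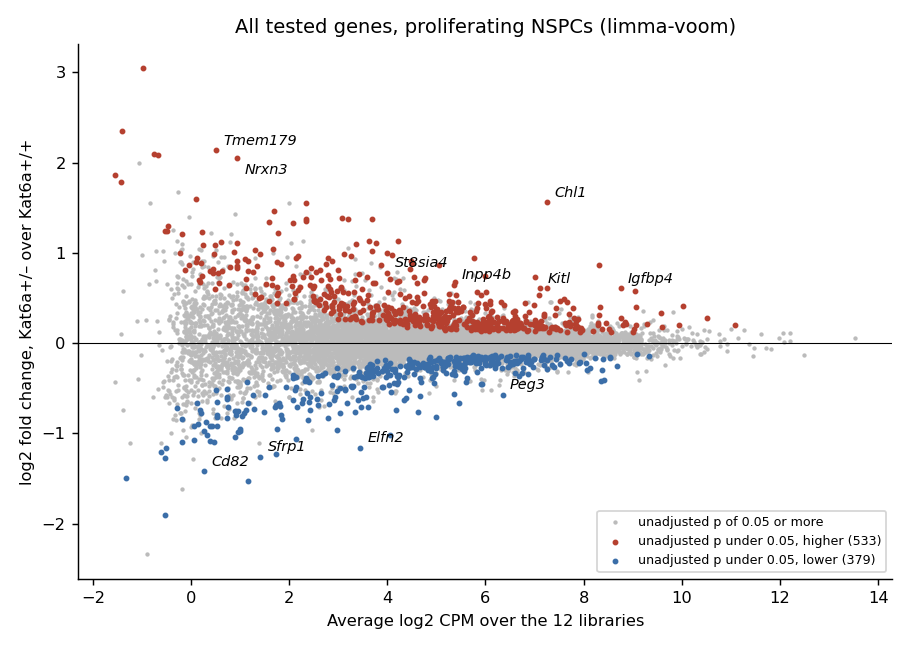
Log2 fold change of *Kat6a*+/– over *Kat6a*+/+ cells (vertical axis) against average log2 CPM (horizontal axis) for the 12276 tested genes, 1 point each. The 533 higher and 379 lower genes at an unadjusted p under 0.05 are coloured, and none of them passed an FDR of 0.05.

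A rule applied to the estimates gave 28 leading genes, 15 higher and 13 lower, namely those with the smallest p on each side and those with the largest difference among genes whose libraries did not overlap. Since the rule used these values, they are a description. The 2 leading genes with the smallest p among those higher in *Kat6a*+/– cells were *St8sia4* and *Inpp4b*. *St8sia4* (Entrez 20452, mm39 chromosome 1, 95515404 to 95595355) encodes a polysialyltransferase that adds polysialic acid to the adhesion molecule NCAM. It was at 8.32, 8.54, 9.09 and 10.1 CPM in *Kat6a*+/+ replicates 1 to 4 and at 14.8, 15.7, 15.2 and 15.3 CPM in *Kat6a*+/– replicates 1 to 4. The heterozygous libraries were tightly grouped, and the estimate was 0.78 ± 0.12 (FDR = 0.0692), or 0.80 without replicate 4. *Inpp4b* (Entrez 234515, mm39 chromosome 8, 82069185 to 82854543) encodes a phosphatase of phosphoinositide lipids that limits PI3K signalling. It was at 24.7, 23.8, 26.2 and 25.9 CPM in *Kat6a*+/+ and at 36.2, 38.4, 41.7 and 46.6 CPM in *Kat6a*+/– replicates 1 to 4 (0.65 ± 0.10, FDR = 0.0692). For both genes the *Kat6a*–/– libraries were higher again, at 26.1 to 34.5 CPM for *St8sia4* and 58.4 to 83.6 CPM for *Inpp4b*, and *Kat6a*–/– differed from *Kat6a*+/– cells (0.96, FDR = 0.000155, and 0.77, FDR = 0.000369).

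The 2 leading genes with the smallest p among those lower in *Kat6a*+/– cells were *Peg3* and *Elfn2*. *Peg3* (Entrez 18616, mm39 chromosome 7, 6706882 to 6733468) is an imprinted zinc finger gene expressed from the paternal allele. Its level was 97.8, 106.2, 93.0 and 92.0 CPM in wild-type replicates 1 to 4, against 60.9, 69.1, 73.9 and 55.0 CPM in heterozygous replicates 1 to 4 (−0.57 ± 0.09, FDR = 0.0692). The *Kat6a*–/– libraries, at 89.5, 79.0, 95.6 and 85.4 CPM, lay above every heterozygous library, and *Kat6a*–/– differed from *Kat6a*+/– cells by 0.43 (FDR = 0.00828), with an estimate of −0.14 against *Kat6a*+/+. *Peg3* was chosen by its low values in these same *Kat6a*+/– libraries, and the FDR does not allow for that choice. *Usp29*, an imprinted gene that starts beside *Peg3* and runs the opposite way, was at 3.13, 4.03, 2.70 and 4.24 CPM in *Kat6a*+/+ and at 1.37, 1.80, 1.64 and 1.50 CPM in *Kat6a*+/– replicates 1 to 4 (−0.95 ± 0.25, FDR = 0.408). Its groups did not overlap either, but its *Kat6a*–/– estimate was −1.24, so that of this pair *Peg3* was closer to wild type in *Kat6a*–/– cells. *Elfn2*, which encodes a membrane protein with leucine-rich repeats found at synapses, was at 37.5, 25.2, 26.2 and 27.4 CPM in *Kat6a*+/+ and at 13.8, 10.3, 14.6 and 13.6 CPM in *Kat6a*+/– replicates 1 to 4 (−1.16 ± 0.18, FDR = 0.0692). It was lower still in *Kat6a*–/– cells, at 1.50 to 6.31 CPM (−1.83 vs. *Kat6a*+/–, FDR = 0.00455).

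The promoter windows of *St8sia4*, *Inpp4b* and *Peg3* are shown because these genes had the smallest p-values and because the *Peg3* window also holds the start of *Usp29*. Each is the RefSeq reference of 300 bases, 250 before to 50 after the gene's start, in build GRCm38.p6 and on the gene's own strand, with every CG in capitals. A window was found for 9872 tested genes (12713 windows), 99.5% of windows held at least 1 CG, and the median was 21.
*St8sia4*, chr1:95667545-95667844, minus strand: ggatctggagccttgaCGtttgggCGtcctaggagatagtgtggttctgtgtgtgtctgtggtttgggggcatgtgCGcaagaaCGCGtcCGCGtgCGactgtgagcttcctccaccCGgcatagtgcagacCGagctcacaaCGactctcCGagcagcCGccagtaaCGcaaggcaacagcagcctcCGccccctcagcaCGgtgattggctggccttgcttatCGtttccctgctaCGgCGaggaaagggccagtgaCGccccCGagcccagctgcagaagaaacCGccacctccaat
*Inpp4b*, chr8:81342312-81342611, plus strand: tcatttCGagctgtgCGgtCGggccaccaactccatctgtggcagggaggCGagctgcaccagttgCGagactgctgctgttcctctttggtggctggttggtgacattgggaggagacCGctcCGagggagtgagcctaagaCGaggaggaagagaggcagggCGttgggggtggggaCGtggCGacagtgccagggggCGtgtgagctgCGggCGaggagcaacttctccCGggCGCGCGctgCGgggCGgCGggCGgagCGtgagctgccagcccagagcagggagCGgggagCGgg
*Peg3*, chr7:6730370-6730669, minus strand: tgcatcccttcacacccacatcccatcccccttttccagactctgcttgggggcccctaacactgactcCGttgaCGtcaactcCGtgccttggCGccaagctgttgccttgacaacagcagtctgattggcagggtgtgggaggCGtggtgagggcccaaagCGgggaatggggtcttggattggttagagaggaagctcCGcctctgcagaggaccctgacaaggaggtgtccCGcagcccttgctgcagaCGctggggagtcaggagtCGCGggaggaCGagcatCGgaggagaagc
The *St8sia4* and *Inpp4b* windows held 22 and 25 CG and the *Peg3* window 13, and 47.0%, 37.4% and 74.2% of all windows held as many or more. The windows of *Peg3* and *Usp29* share 263 bases on opposite strands, their starts being 164 bases apart.

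The other leading genes fell into secreted ligands, receptors, adhesion molecules and regulators. Among the ligands, *Kitl*, which activates the receptor KIT, was at 108, 86.0, 102 and 94.4 CPM in *Kat6a*+/+ and at 137, 142, 139.8 and 198 CPM in *Kat6a*+/– replicates 1 to 4 (0.61 ± 0.11, FDR = 0.139). *Angpt2*, a ligand of the receptor TEK, was at 108, 89.9, 77.1 and 85.8 CPM in *Kat6a*+/+ and at 156, 152, 127 and 181 CPM in *Kat6a*+/– replicates 1 to 4 (0.73 ± 0.13, FDR = 0.139). In both, the highest library was *Kat6a*+/– replicate 4, and the estimates without it were 0.52 and 0.70. *Angpt2* was about as high with one allele as with none, since *Kat6a*–/– minus *Kat6a*+/– was 0.04 with a 95% interval from −0.23 to 0.31, and the same difference for *Kitl* was 0.25 (0.02 to 0.48, FDR = 0.122). *Igfbp4*, an insulin-like growth factor binding protein, was at 246 to 280.4 CPM in wild-type and 358 to 471 CPM in heterozygous libraries (0.61 ± 0.12, FDR = 0.146). It was the most strongly counted of the leading genes and the groups did not overlap.

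Signalling molecules were also among the lower genes. *Dll1*, a ligand that activates NOTCH receptors on neighbouring progenitors, was at 76.6, 75.4, 83.9 and 67.8 CPM in *Kat6a*+/+ and at 59.0, 57.1, 59.3 and 47.0 CPM in *Kat6a*+/– replicates 1 to 4 (−0.45 ± 0.08, FDR = 0.146). The *Kat6a*–/– estimate was −0.53, and *Kat6a*–/– minus *Kat6a*+/– was −0.08 (95% interval −0.27 to 0.11). *Sfrp1*, a secreted antagonist of Wnt ligands, was at 8.69, 13.3, 5.60 and 8.35 CPM in *Kat6a*+/+ and at 4.91, 2.70, 3.19 and 2.50 CPM in *Kat6a*+/– replicates 1 to 4 (−1.26 ± 0.26, FDR = 0.197). In contrast to *Dll1*, it was much lower again in *Kat6a*–/– cells (−2.10 vs. *Kat6a*+/–, FDR = 0.0121). Of the receptors, *Il17ra*, a receptor chain for interleukin 17, had an estimate of −0.52 ± 0.09 (FDR = 0.139), and the serotonin receptor *Htr1b* had −0.79 ± 0.19 (FDR = 0.338). *Htr1b* showed the steepest fall from one allele to none of the leading genes, from 6.73 ± 1.17 CPM to 0.624 ± 0.388 CPM (−3.82, FDR = 0.000358).

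*Chl1*, an adhesion molecule of the L1 family that guides neurites, was at 42.5, 23.2, 90.4 and 65.9 CPM in *Kat6a*+/+ and at 121, 148, 139.9 and 191 CPM in *Kat6a*+/– replicates 1 to 4 (1.56 ± 0.28, FDR = 0.146). The groups did not overlap although the *Kat6a*+/+ libraries spread widely. *Nrxn3*, a presynaptic neurexin, had an estimate of 2.05 ± 0.73 (FDR = 0.526) and *Tmem179* one of 2.14 ± 0.63 (FDR = 0.448), both from levels under 0.5 CPM in every *Kat6a*+/+ library. *Frem1*, a protein of basement membranes, was at 2.58, 2.70, 3.60 and 11.98 CPM in *Kat6a*+/– replicates 1 to 4, replicate 4 being far above the others. Its estimate was 1.55 ± 0.55 (FDR = 0.524), or 1.25 without that library. The remaining higher genes were the adaptor *Skap2* (0.94), the antiviral membrane protein *Ifitm3* (1.13), the VCP-binding protein *Svip* (0.88), the corepressor *Runx1t1* (1.22), the LIM cofactor *Ldb2* (1.39) and *Casp12* (1.38), a caspase of the inflammatory group. The remaining lower genes were the transcriptional repressor *Bach2* (−0.38), the Golgi subunit *Cog8* (−0.30), the membrane-anchored *Ly6e* (−1.07), the kinase *Prkch* (−1.09), the tetraspanin *Cd82* (−1.42), the protein deiminase *Padi2* (−1.09) and the homeodomain factor *Isl2* (−1.07). Among these remaining genes the FDR ranged up to 0.497 in limma, and over all 28 up to 0.526. In *Bach2* alone of the 28 the groups overlapped.

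**Figure D3:**
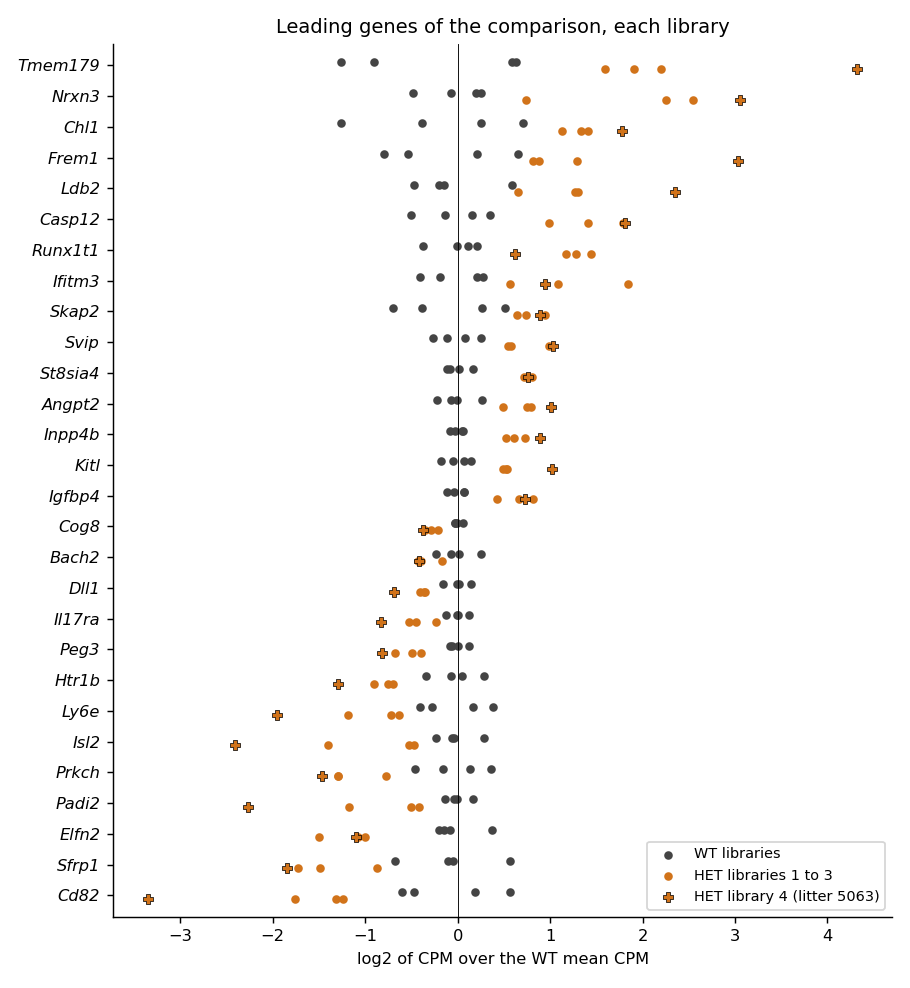
Log2 of each library's CPM over the *Kat6a*+/+ mean (horizontal axis) for the 28 leading genes (rows), 1 point per library. In 27 of the 28 genes the 4 *Kat6a*+/– libraries lie outside the range of the 4 *Kat6a*+/+ libraries, which follows in part from the rule that chose the genes. Over all tested genes 2.26% lay above that range and 2.31% below. Replicate 4, drawn as an outlined plus sign, is the most extreme for *Tmem179*, *Frem1* and *Cd82*, among others.

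Litters 4113 and 4633 held both genotypes, so these genes could also be read within a litter. In litter 4113 (1 library of each genotype) *St8sia4* differed by 0.83, *Inpp4b* by 0.55, *Peg3* by −0.68 and *Elfn2* by −1.44 on the log2 scale. In litter 4633 (2 *Kat6a*+/– libraries and 1 *Kat6a*+/+ library) the same differences were 0.76, 0.61, −0.38 and −1.09. *Dll1* differed by −0.38 and −0.53, and *Kitl* by 0.35 and 0.46. These libraries also entered the fit, and with 1 *Kat6a*+/+ library in each litter no test was made. With Y-linked reads as a covariate the estimates of *St8sia4*, *Inpp4b*, *Peg3*, *Elfn2* and *Dll1* were 0.77, 0.61, −0.54, −1.28 and −0.43.

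The transcription factors that pattern the dorsal telencephalon were examined as a list, since the study was concerned with developmental regulators. Of 19 listed genes 15 were tested. Among the untested members *Emx1* had 2 reads over the 8 libraries and *Dmrt3* had no read. *Dmrta1* and *Sp8* reached at most 0.901 and 0.839 CPM. Of the tested genes 5 had an unadjusted p under 0.05, all lower in *Kat6a*+/– cells, against 3.09% lower over all tested genes. These were *Lef1*, *Meis2*, *Otx1*, *Dmrta2* and *Emx2*, and the study itself singled out all but *Lef1* using these same libraries, so that their direction is not independent evidence. *Meis2*, a homeodomain cofactor, was at 81.4, 82.2, 72.3 and 74.3 CPM in *Kat6a*+/+ and at 72.0, 54.3, 67.6 and 50.6 CPM in *Kat6a*+/– replicates 1 to 4 (−0.32 ± 0.09), without overlap. *Otx1*, a homeodomain factor of deep-layer progenitors, had an estimate of −0.43 ± 0.14, but *Kat6a*+/– replicate 1, at 30.7 CPM, lay within the *Kat6a*+/+ range of 25.2 to 32.9 CPM. *Emx2*, a homeodomain regulator of cortical area and growth, had −0.39 ± 0.16, with differences of −0.40 in litter 4113 and 0.10 in litter 4633. *Dmrta2*, which keeps cortical progenitors dividing, had −0.32 ± 0.11, and *Lef1*, the nuclear effector of Wnt signalling, −1.53 ± 0.38. None passed the FDR threshold (0.388 to 0.635 in limma). The median over the list was −0.02, against −0.00 over all genes, with 7 estimates above 0 and 8 below. Without *Kat6a*+/– replicate 4, 4 members were lower at that level. *Emx2* and *Dmrta2* were at −0.25 and −0.28 without *Kat6a*+/+ replicate 1, with unadjusted p of 0.174 and 0.0626 in limma. *Kat6a*–/– differed from *Kat6a*+/– cells in *Meis2*, *Otx1*, *Dmrta2* and *Emx2*, by −0.59, −1.07, −0.56 and −0.95 (FDR 0.00285 to 0.0179 in limma).

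Of 12 tested SOX genes, 2 had an unadjusted p under 0.05 (*Sox1* and *Sox13*), both lower, against 3.09% lower over all tested genes. The median of the SOX genes was −0.09. *Sox1*, a factor of early neural progenitors, was at 40.1, 33.3, 24.9 and 28.1 CPM in *Kat6a*+/+ and at 24.9, 22.2, 22.4 and 32.6 CPM in *Kat6a*+/– replicates 1 to 4. The groups overlapped, with an estimate of −0.37 ± 0.14 (FDR = 0.569) that was −0.19 without *Kat6a*+/+ replicate 1. In *Kat6a*–/– cells it was at 4.19 to 6.46 CPM (−2.23 vs. *Kat6a*+/–, FDR = 0.000312), so most of the difference between both alleles and none lay between one allele and none. *Sox2*, which marks neural stem cells, had −0.05 ± 0.10. The HOX and TBX families could not be compared, because none of 39 HOX and 13 TBX genes passed the filter on low counts. The 39 HOX genes summed to at most 0.0998 CPM in any of the 8 libraries.

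Progenitor identity and the balance of cell types were described with further lists. In these and the following lists a gene is called higher or lower at an unadjusted p under 0.05, and none passed the FDR threshold. Over all tested genes 4.34% were higher and 3.09% lower at this level, and each list count is to be read against these shares. None of 15 radial glia markers, 12 neuronal markers or 5 proneural genes had an unadjusted p under 0.05. The neuronal tubulin *Tubb3*, at 4.09 to 4.50 CPM in wild-type and 2.34 to 4.01 CPM in heterozygous libraries, did not overlap (−0.29 ± 0.21), and the neuronal median of 0.01 was −0.20 without *Kat6a*+/– replicate 4. In the Notch pathway 2 of 21 did, *Dll1* and the target *Hey1* (−0.44 ± 0.17), both lower. Of 10 tested astrocyte markers 2 did, both higher: *Mlc1*, a membrane protein of astrocyte end feet, at 0.46 ± 0.11, and the matrix protein *Sparcl1* at 0.41 ± 0.16. The 12 listed astrocyte markers summed to 1630 to 1904 CPM in wild-type and 2115 to 2891 CPM in heterozygous libraries, without overlap, and the median estimate of the tested members was 0.38 (0.34 without *Kat6a*+/– replicate 4). Most of the summed CPM came from *Sparcl1* and *Slc1a3*, and the groups overlapped in each of them. *Slc1a3*, also on the radial glia list, was at 563 to 746 CPM in wild-type and 636 to 1438 CPM in heterozygous libraries. Its highest library was *Kat6a*+/– replicate 4. *Gfap* reached at most 1.80 CPM in the 8 libraries, and *Gjb6* had no read. In *Kat6a*–/– cells the median was 1.41. All 3 tested mesenchymal markers had estimates above 0, and 1 of them, *Prrx1*, was higher (0.45 ± 0.12). *Foxc1* was at 19.2 to 26.6 CPM in wild-type and 24.1 to 29.1 CPM in heterozygous libraries (0.24 ± 0.12). The untested *Dcn* and *Lum* were at or near 0. Of 10 tested oligodendrocyte lineage markers 1, *Cnp*, was lower (−0.28 ± 0.10), and of 3 tested ventral genes 1, *Sp9*, was lower (−1.16 ± 0.45), at −0.75 without *Kat6a*+/– replicate 4 with an unadjusted p of 0.0791 in limma. Whether a shift in cell types took part in the other results was not tested.

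Among signalling genes, 4 of 22 tested growth factor ligands, their receptors and binding proteins had an unadjusted p under 0.05, all higher: *Kitl*, *Angpt2*, *Igfbp4* and *Ptn*, the last a heparin-binding factor of radial glia at 1423 CPM against 1143 CPM (0.28 ± 0.08). The share of higher genes over all tested genes was 4.34%, and the median of the list was 0.13 (0.04 without *Kat6a*+/– replicate 4). The Wnt list, 36 tested, had 4 higher and 5 lower members and a median of −0.11. The lower ones were the effector *Lef1*, the antagonist *Sfrp1*, the feedback inhibitor *Nkd1* (−0.45), the activator *Frat2* (−0.46) and the receptor *Fzd8* (−0.49). The higher ones were *Mcc* (0.54), the secreted *Dkk3* (1.34), the R-spondin receptor *Lgr5* (0.45) and the ligase *Znrf3* (0.19). They thus included activators and inhibitors on both sides. In the FGF, EGF and ERK feedback list, 20 tested, *Dusp6* was higher (0.23) and *Fgfr3* lower (−0.59). *Id1* was higher among 18 BMP and ID genes (0.71, or 0.64 with an unadjusted p of 0.0846 without *Kat6a*+/– replicate 4 in limma), and *Dlc1* and *Amotl2* were lower among 24 YAP targets (−0.35 and −0.38).

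Genes of adhesion and of the cell surroundings were next examined, beside 4.34% higher and 3.09% lower over all tested genes. Of 25 tested neural adhesion molecules, 4 had an unadjusted p under 0.05 on the higher side (*Chl1*, *Negr1*, *Nrxn3* and *Opcml*) and 1 on the lower (*Elfn2*). Of 22 fibronectin and matricellular genes 4 were higher and 0 lower, led by *Edil3*, an integrin-binding secreted protein at 6.10 to 7.46 CPM in wild-type and 10.2 to 16.2 CPM in heterozygous libraries (1.11 ± 0.24), and *Igsf10* (0.56 ± 0.13). The others were *Spp1* (0.40) and *Lamb1* (0.20). Of 43 tested clustered protocadherins, which give neurons a surface identity, 5 were higher, 4 of them of the beta cluster (*Pcdhb4*, *Pcdhb8*, *Pcdhb11* and *Pcdhb14*) and 1 of the gamma cluster (*Pcdhga6*). Without *Kat6a*+/– replicate 4, 2 were higher and 1 lower, and the median went from 0.09 to −0.01, so the list's direction rested on that library. Reads of near-identical protocadherins may have been shared out in ways the files do not show. Of 55 axon guidance genes 4 were higher (*Robo1*, *Robo2*, *Epha5* and *Plxnc1*) and 2 lower, among them the ROBO ligand *Slit2* (−0.91 ± 0.24, against 0.47 ± 0.14 for *Robo2*). The collagens gave 2 of 25 higher (*Col4a2* and *Col26a1*), the integrins 1 of 18 (*Itgb5*), the delta protocadherins 0 of 8 and the ST8SIA family 1 of 4 (*St8sia4*). In either direction this was 8% of the collagens and 5.56% of the integrins, near the 7.43% of all tested genes. The phosphoinositide phosphatases gave 3 of 17 higher, *Inpp4b*, *Mtm1* (0.34) and *Sacm1l* (0.19), and 1 lower, *Inpp5b* (−0.15). Without *Kat6a*+/– replicate 4, the number higher became 2 for the matricellular genes, 2 for axon guidance, 1 for the phosphoinositide phosphatases and 0 for the integrins (*Itgb5* going from 0.35 to 0.19).

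**Figure D4:**
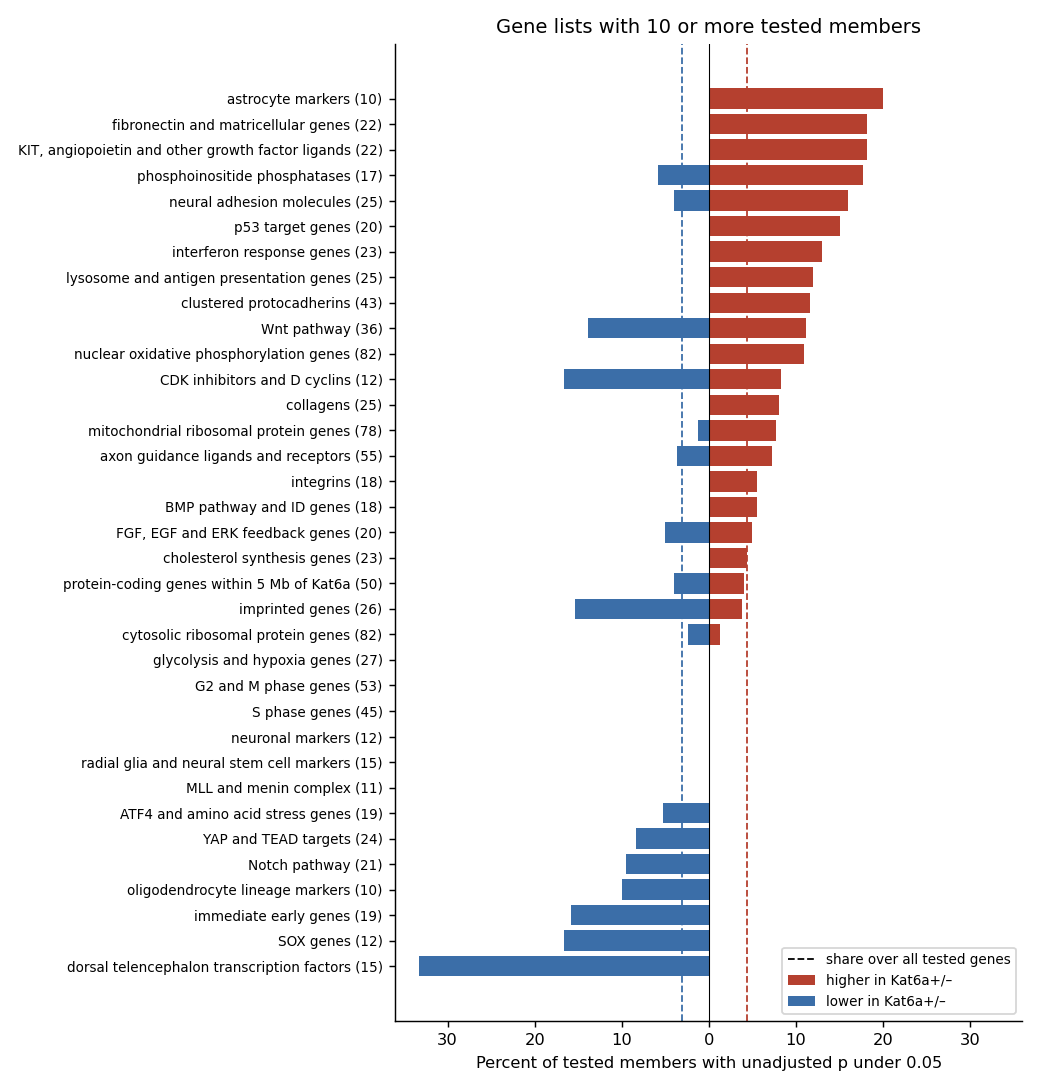
Percent of the tested members of each gene list of 10 or more with an unadjusted p under 0.05 in *Kat6a*+/– vs. *Kat6a*+/+ cells (horizontal axis, higher to the right and lower to the left), with the number tested in brackets and dashed lines at 4.34% and 3.09%, the shares over all tested genes. The dorsal telencephalon factors reach furthest to the left, with 5 of 15, and the astrocyte markers furthest to the right, with 2 of 10.

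Growth and metabolism genes showed mostly small estimates, and their counts stand beside 4.34% higher and 3.09% lower over all tested genes. None of 45 S phase genes and none of 53 G2 and M phase genes had an unadjusted p under 0.05, with medians of −0.04 and −0.03, against −0.31 and −0.26 in *Kat6a*–/– cells. Of 12 CDK inhibitors, D cyclins and their kinases, the kinase *Cdk6* (−0.78 ± 0.27) and *Cdkn1c* (−0.59 ± 0.22) were lower and *Cdkn2b* (0.56 ± 0.24) was higher. Without *Kat6a*+/– replicate 4, 1 was lower and 0 higher. Of 20 p53 target genes 3 were higher (*Pmaip1*, *Ccng1* and *Eda2r*), a count that went to 1 without *Kat6a*+/– replicate 4. *Ccng1* was at 270.5, 248, 254 and 451 CPM in *Kat6a*+/– replicates 1 to 4 and at 198 to 243 CPM in *Kat6a*+/+ libraries, so the highest library was again replicate 4. The nuclear genes of oxidative phosphorylation leaned one way: 74 of 82 tested (90.2%) had estimates above 0, against 49.8% of all tested genes. Of these 9 had an unadjusted p under 0.05, all higher, among them the complex I subunit *Ndufc2* (0.27 ± 0.07) and the ATP synthase subunit *Atp5me* (0.47 ± 0.14). The median was 0.09, or 0.05 without *Kat6a*+/– replicate 4, when 9 were again higher, and 0.18 in *Kat6a*–/– cells. Some other lists leaned as far: 17 of 20 p53 targets were above 0, and 17 of 19 immediate early and 18 of 21 Notch genes were below 0. Members of a list were measured in the same libraries and are not independent of each other. The mitochondrial ribosomal proteins gave 6 of 78 higher (1 without *Kat6a*+/– replicate 4) and 1 lower, and the cytosolic ones 1 of 82 higher (*Rps27l*) and 2 lower (*Rps7* and *Rps29*). The cytosolic ribosomal protein genes summed to 9870 CPM in *Kat6a*+/– replicate 4 and to 12189 to 14441 CPM in the other 7 libraries. No glycolysis and hypoxia gene of 27 had an unadjusted p under 0.05, and the median of −0.15 became 0.04 without *Kat6a*+/– replicate 4. That list varied over 2-fold within each genotype, from 3677 to 9126 CPM in wild-type and from 3637 to 8407 CPM in heterozygous libraries. Of 19 immediate early genes 3 were lower, *Klf4* (−0.76 ± 0.19), *Nr4a1* (−0.43) and *Atf3* (−0.75), and 1 was lower without *Kat6a*+/– replicate 4. *Slc7a5* was the single lower gene of 19 ATF4 targets (−0.28) and *Hsd17b7* the single higher one of 23 cholesterol genes (0.21).

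Over all tested genes 4.34% were higher and 3.09% lower at this level, which the following counts are to be read against. Of 26 tested imprinted genes 4 were lower (*Peg3*, *Usp29*, *Cdkn1c* and *Slc38a4*) and 1 was higher (*Ube3a*), with a median of 0.00, and 2 were lower without *Kat6a*+/– replicate 4. Of 23 interferon response genes 3 were higher (*Ifitm3*, *Ifi35* and *Ifi27*), or 5 without *Kat6a*+/– replicate 4, and of 25 lysosomal and antigen presentation genes 3 were higher (*Ctsc*, *Lamp2* and *Ctsz*), or 1 without it. None of 5 genes that escape X inactivation had an unadjusted p under 0.05, with a median of 0.16. Of the 50 tested genes within 5 Mb of *Kat6a* on mm39 chromosome 8, 2 were higher (*Angpt2* and *Lsm1*) and 2 lower (*Sfrp1* and *Plat*), and the median was −0.01. These 4 of 50 are close to the 7.43% of all tested genes.

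The direct comparison of *Kat6a*–/– with *Kat6a*+/– cells called 1813 genes at an FDR under 0.05, 1040 higher (8.47%) and 773 lower (6.3%) in *Kat6a*–/–, which shows where a single functional allele left the mRNA level different from that without one. The steepest falls were those of *Nrn1*, a neurite growth factor (−4.01), *Cadps*, a factor of vesicle release (−3.84), and *Htr1b* (−3.82). The steepest rises were those of the lipase *Pla2g7* (3.70), the zinc transporter *Slc39a12* (3.59) and *Fam20a* (3.56). For these genes the *Kat6a*+/– vs. *Kat6a*+/+ estimates were −0.54, −0.41, −0.79, 0.49, −0.43 and 0.98. *Pla2g7* was at 12.3 CPM in *Kat6a*+/– replicate 4 and at 0.403 to 1.30 CPM in the other heterozygous libraries. Without replicate 4 the estimates of *Pla2g7*, *Slc39a12* and *Fam20a* were −0.14, −1.27 and 0.36, and for *Slc39a12*, near 0 in most libraries, the heterozygous mean of 0.345 CPM was above the wild-type mean of 0.165 CPM although its fitted estimate was negative. The called count varied with 1 library, since it was 696 without *Kat6a*–/– replicate 4, 803 without *Kat6a*+/– replicate 1, 1005 without *Kat6a*–/– replicate 1 and 1201 without *Kat6a*+/– replicate 2. Of the 28 leading genes 18 were called, with the estimates of both genotypes against the same *Kat6a*+/+ libraries shown side by side. The 10 that were not called included *Kitl*, *Angpt2*, *Dll1*, *Prkch*, *Ifitm3*, *Cd82* and *Padi2*. *Prkch*, for example, was at −1.09 with one allele and −1.02 with none (difference 0.07, 95% interval −0.61 to 0.75). *Prrx1*, at 0.45 and 0.16, and *Cog8*, at −0.30 and −0.12, were nearer to wild type with no allele, although in neither was the difference called (FDR = 0.109 and 0.114 in limma). The leading genes and *Prrx1* were chosen by their values in the *Kat6a*+/– libraries, which this comparison uses again. Its FDR does not allow for that choice.

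**Figure D5:**
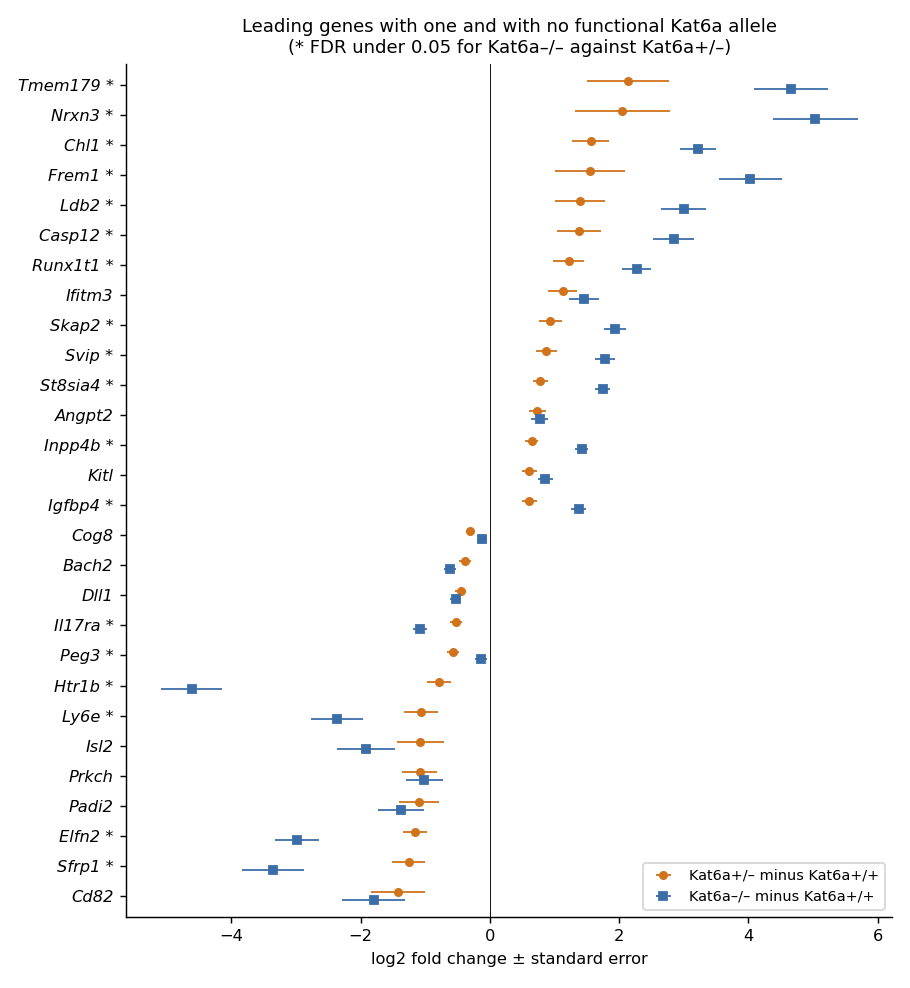
Log2 fold change with its standard error (horizontal axis) of the 28 leading genes (rows) in *Kat6a*+/– (circles) and *Kat6a*–/– cells (squares), each against the same 4 *Kat6a*+/+ libraries. A star marks the 18 genes with an FDR under 0.05 for *Kat6a*–/– against *Kat6a*+/–, and *Peg3* is at −0.57 with one allele and −0.14 with none.

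Whether the effect of losing one allele depended on the culture condition was tested as an interaction over all 24 libraries. Of 13590 genes none passed an FDR of 0.05 (0%) in limma, where the smallest FDR was 1.00 and 412 genes had an unadjusted p under 0.05, and edgeR also called 0. Of the leading genes, *St8sia4*, *Inpp4b*, *Peg3* and *Dll1* had differences between conditions of −0.70, −0.19, 0.18 and −0.01. A negative value means a lower estimate in differentiating cells. Their unadjusted p in the limma interaction fit was 0.0252, 0.399, 0.357 and 0.978. These genes were chosen by their values in the proliferating libraries, which this difference subtracts, so it is not independent of that choice. The RNA kit differed between conditions, so kit and condition cannot be told apart.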

How the data were processed

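Stranded libraries of polyadenylated RNA were sequenced by the authors, aligned with Rsubread, and deposited as raw counts of reads per gene on strict RefSeq genes, with mm39 and featureCounts named in the submitters' processing notes; tool versions and the strand setting of the counting are not given in the sources used here, so overlapping antisense genes and near-identical copies are uncertain. Each file held 26411 genes. Biotypes were matched by Entrez identifier for 26359, of which 21030 were protein-coding. Following the study's methods, genes passing filterByExpr were kept, *Xist* and Y-linked genes were removed, and library totals were scaled by TMM (edgeR 4.0.16). This left 12276 genes, fitted with limma 3.58.1 (voom, litter as a random block with a within-litter correlation of 0.287, robust moderation) over the 12 proliferating libraries, which share one estimate of spread. P-values were adjusted by Benjamini-Hochberg, and FDR under 0.05 was a call. Unless stated, FDR comes from this fit. CPM use the scaled totals. The interaction fit held 24 libraries and 13590 genes. The scripts were tested on simulated data.

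Replicates are single embryos. Replicate numbers did not pair the samples, and counts of libraries of one group differed by more than sampling noise (chi-square of at least 7.36 per degree of freedom), so none was the same library deposited again; a second library of one embryo would not be found this way. Precision is set by 4 libraries a group and totals from 7854556 counts; at low CPM counting error adds to the spread.

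Named genes were the 10 smallest p on each side and the 6 largest differences on each side among non-overlapping genes with an unadjusted p under 0.05 (both with average log2 CPM above 0), 2 per list by p, 11 always named, and 3 a side called for *Kat6a*–/– against *Kat6a*+/–. For the 48 lists the text further names complete sets of members with an unadjusted p under 0.05, and a few other members (such as *Gfap*, *Dcn*, *Gjb6* and *Tubb3*) chosen after their values were seen. The members, lists and rule were chosen with earlier results of these data known. Positions are from GENCODE vM39 (mm39). Differences within a litter are of log2(CPM + 0.1). Alternatives used edgeR and DESeq2 1.42.0 (both without a litter term), other scalings, filters, litter terms and weights, and each library left out.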

Additional observations from a re-analysis of the deposited data

Results flagged for a closer look

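In each group of 4 libraries, a value was marked where the gap of the highest or lowest library to its neighbour took up an unusually large share of the group's range by Dixon's criterion, which chance meets in about 1 group in 20. Of 112 groups checked 6 were marked. Among *Kat6a*+/– libraries the share was 0.932 for *Kitl*, 0.907 for *Tmem179* and 0.891 for *Frem1*, in each of which replicate 4 was the high library, and 0.861 for *Bach2*, in which replicate 2, at 54.6 CPM, was high. Among *Kat6a*+/+ libraries it was 0.875 for the percent of counts in protein-coding genes, where replicate 1 had 98.4%, and 0.857 for the summed neuronal markers, where replicate 4 had 1523 CPM and the others 1629 to 1646 CPM.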

How the results depend on the processing

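Genes called for *Kat6a*+/– vs. *Kat6a*+/+ numbered 0 in the main design, 28 with DESeq2, 3 with the 8 libraries alone and 9 with library quality weights, and 0 to 6 when single libraries were left out (3 without *Kat6a*+/– replicate 3, 6 without *Kat6a*–/– replicate 3 and 4 without *Kat6a*–/– replicate 4). The causes were not tested. *Peg3*, *Inpp4b* and *St8sia4* were called by DESeq2, *Inpp4b* and *St8sia4* also with the 8 libraries. Of the 28 leading genes 20 were called in at least 1 alternative, and none of the 721 alternative estimates of the 28 had the other sign. These genes were chosen by their values in the same libraries, so neither count is independent evidence. At an unadjusted p under 0.05, 912 genes became 1421 with quality weights and 482 to 1210 with 1 library left out, lowest without *Kat6a*+/+ replicate 1. Non-overlapping genes went from 561 to between 738 and 1325 with 1 library fewer, by construction, and 27 leading genes met that condition with all 8. The *Kat6a* difference of −38.2 CPM was −33.4 to −43.4 CPM with 1 library left out, as a value with no test. The calls for *Kat6a*–/– vs. *Kat6a*+/– were 1813, and 696 to 2200 with 1 library left out. They were 951 with edgeR, which had no litter term, and 960 with limma without that term. The interaction called 0, and 0 to 1 with 1 library left out. Without litter 5063, and with a minimum of 5 CPM, both chosen after seeing the data, 0 genes were called for *Kat6a*+/–. A minimum of 1 CPM left the counts of the main design as they were, but it is close to the filter already used and so is not a separate check.

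With the replicate number as a block (replicate block), 0 genes were called for *Kat6a*+/– vs. *Kat6a*+/+, 963 had an unadjusted p under 0.05, and 1183 were called for *Kat6a*–/– vs. *Kat6a*+/–. The numbers are not a pairing: deviations of same-numbered libraries correlated at 0.276, −0.287, −0.429 and −0.158. With 4 embryos a group, the 95% interval of the difference extended by a median of 0.229 on the log2 scale to either side, and *Kat6a*+/– replicate 4 came from a litter without wild types.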
